A study of Mus musculus with 6 samples.

Results

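The transcripts of 10 genes of the NF-kappaB pathway were examined in osteoclasts, the multinucleated cells that resorb bone. They were the 5 NF-kappaB subunit genes Nfkb1, Nfkb2, Rela, Relb and Rel, and 5 regulators, Nfkbia, Nfkbie, Tnfaip3, Map3k14 and Traf3. The genes were taken by symbol from a deposited table of read counts for 22601 genes, and all 10 were found and passed the filter on low counts. Of these, 6 were assigned to the canonical arm (Nfkb1, Rela, Rel, Nfkbia, Nfkbie and Tnfaip3) and 4 to the non-canonical arm (Nfkb2, Relb, Map3k14 and Traf3). RNAseq covered 3 WT and 3 Slc37a2 KO libraries. Per the study's methods, KO mice were homozygous for a gene-trap allele, tm2a(KOMP)Wtsi, from 1 embryonic stem cell clone on the C57BL/6N background, with no tissue-specific driver named, and WT littermates served as controls. The column headings give an age of 11 weeks, an animal number and the letter F. Per the labels, bone marrow macrophages (BMMs) of both genotypes were differentiated for 5 days with RANKL, the cytokine that drives osteoclast formation, at 10 ng/ml, and M-CSF, which keeps macrophages alive, at 2 ng/ml. The study's results also describe the RNAseq as done on osteoclasts, while its RNAseq methods describe RNA of whole femurs and tibias. These descriptions alone do not settle the source of the RNA, and the levels of osteoclast and blood cell markers are given below. Nothing in the headings pairs a library with another.

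NF-kappaB factors are dimers that switch on genes of inflammation, cell survival and differentiation. In the canonical arm, receptor signals destroy the IkappaB proteins, which frees dimers of RelA or c-Rel with p50, the product of Nfkb1. In the non-canonical arm, TRAF3 keeps the kinase NIK, encoded by Map3k14, at a low level until a receptor removes TRAF3. NIK then drives processing of p100, encoded by Nfkb2, to p52, which pairs with RelB. RANK, the receptor for RANKL, engages both arms, and mice that lack both Nfkb1 and Nfkb2 fail to form osteoclasts. Much of this control acts on proteins, which read counts do not measure.

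Several of these genes are themselves textbook targets of NF-kappaB, so the windows around their start sites were searched for its motif. The RefSeq windows of GRCm38.p6 span 250 bases before to 50 bases after a start site, and 11 windows matched 8 members (not Nfkb1 or Relb). The broad motif, GGG then any 5 bases then CC, on both strands and with overlapping matches counted, was in 11 of these 11 windows but also in 50.8% of the 32851 windows of all genes. The stricter NF-kappaB consensus, a subset of the broad motif chosen after the first search, was in 8 of the 11 windows and in 6 of the 8 members, all but Rela and Map3k14. The last 2 of the Nfkb2 windows overlap and share a consensus site, the only one in the last window, so it was counted in both. It was in 8.5% of all windows, and in 13.3% of the 9690 windows with a GC content of at least 60%, against a median GC of 65.0% in the members' windows. The sites below are shown because they mark which members carry the consensus beside their start sites. Each is read 5′ to 3′ on the strand of its gene, with the matching bases in capitals.
Nfkbia: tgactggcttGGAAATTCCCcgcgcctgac
Nfkbie: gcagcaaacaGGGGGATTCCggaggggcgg
Tnfaip3: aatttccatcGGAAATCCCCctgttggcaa
Rel: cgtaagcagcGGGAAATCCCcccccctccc
Nfkb2, first window: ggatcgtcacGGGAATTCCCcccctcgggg
Nfkb2, second window: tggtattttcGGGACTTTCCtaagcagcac
Traf3: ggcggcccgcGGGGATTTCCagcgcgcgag
The capitals of the Nfkbia site lie at chr12:55492667-55492676, beginning 29 bases before the start site. Those of Nfkbie lie at chr17:45555594-45555603, 106 bases before it, and those of Tnfaip3 at chr10:19015413-19015422, 12 bases before it. The Rel site is at chr11:23771052-23771061, beginning 92 bases before the start. The Nfkb2 sites are at chr19:46304698-46304707, 39 bases before the first start, and at chr19:46305705-46305714, just after the second. The Traf3 site is at chr12:111166360-111166369, 10 bases before the start. A match describes the letters alone, and binding was not measured.

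The libraries held 39250356, 27552183 and 31396766 counts in WT K090, L080 and L082, and 29279260, 42522292 and 29663713 counts in KO K089, L078 and L081. The members together took between 37453 and 57213 counts per library, and single members from 493 (Map3k14 in KO K089) to 14950 (Nfkbia in WT K090). Levels are given as CPM, the counts of a gene relative to its library total, scaled by the TMM method of edgeR. No 2 libraries agreed within sampling noise in a chi-square test across genes. The knocked-out gene matched the labels, since Slc37a2 was at 1857, 2151 and 2440 CPM in the WT libraries and at 45.3, 32.1 and 36.9 CPM in the KO libraries (1.77% of the WT mean). Osteoclast markers were abundant, and the 14 listed summed to between 41621 and 81082 CPM, led by Mmp9. Of 7 red cell markers the table lists 1, Hba-a1, at a sum of at most 0.0707 CPM, and the sums for B lymphoid, T and NK cell, and neutrophil markers were at most 0.320, 2.45 and 1.28 CPM. The table does not list the B cell markers Ms4a1 and Pax5, the T and NK cell markers Cd3d, Cd3e, Cd3g, Cd8a and Ncr1, or the neutrophil markers Elane and Ly6g.

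No member of the NF-kappaB group passed the test for a difference between genotypes. The quasi-likelihood test of edgeR was run on 13483 genes with p adjusted after Benjamini and Hochberg, and 0 of the 10 members had an adjusted p below 0.05, against 0.00742% of all genes tested, a single gene, Slc37a2. At an unadjusted p below 0.05 there were also 0 members, against 0.712% of genes. The likelihood ratio test of edgeR and the Wald test of DESeq2 also called 0 members, where each called 0.0148% of genes. The KO and WT libraries overlapped for all 10 members, where 4.31% of genes tested had groups that did not overlap. Of the members, 7 had a log2 fold change (KO over WT) above 0 and 3 below, with a median of 0.039 against −0.023 for all genes tested. Without regard to sign, the median log2 fold change of the members was 0.067, against 0.073 among the 8692 genes with a mean of at least 10 CPM.

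These values leave room for small changes. The 95% confidence interval of the log2 fold change lay inside a 2-fold change in either direction for 10 of 10 members. It lay inside a 1.5-fold change for 9 of 10, all but Map3k14. The shares were 93.7% and 83.5% among genes with a mean of at least 10 CPM. An exact permutation test of a single gene cannot give a two-sided p below 0.1 with 3 libraries against 3, so the intervals come from the fitted model. The headings give each library its own animal number, and the p-values measure the spread between these libraries only.

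**Figure D1:**
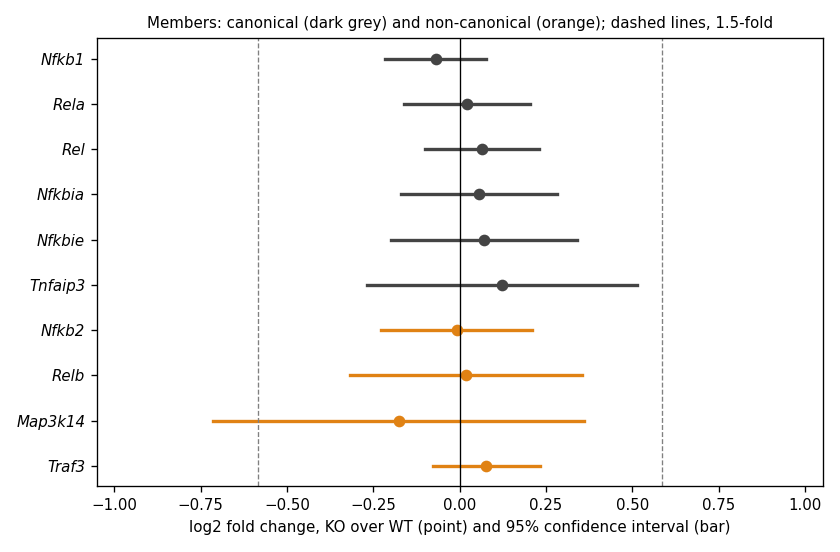
Log2 fold change of each member (KO over WT, horizontal axis) with its 95% confidence interval from edgeR, canonical members in dark grey and non-canonical members in orange. All 10 intervals cover 0, and that of Map3k14, from −0.71 to 0.36, is the widest.

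The canonical subunits were, with Traf3, the steadiest members. Nfkb1 (chr3:135584655-135691547, minus strand), which encodes the p105 precursor of p50, was at 163, 157 and 149 CPM in WT K090, L080 and L082. It was at 144, 151 and 151 CPM in KO K089, L078 and L081. The highest library was only 1.13 times the lowest, and the groups overlapped by a narrow margin. The mean was 156 ± 7.12 CPM (SD, n = 3) in WT and 149 ± 3.89 CPM (SD, n = 3) in KO. The log2 fold change was −0.07 (standard error 0.06, interval −0.22 to 0.077, edgeR adjusted p = 0.969).

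Rela (chr19:5637483-5648130, plus strand), the gene of the p65 subunit that carries a transactivation domain, was at 77.9, 84.3 and 79.2 CPM in WT K090, L080 and L082. In KO K089, L078 and L081 it was at 81.9, 75.1 and 87.9 CPM. Both the lowest and the highest of the 6 libraries were thus KO, and the WT libraries lay between them. The log2 fold change was 0.020 (interval −0.16 to 0.20). Rel (chr11:23736847-23770970, minus strand), which encodes c-Rel, was at 76.8, 72.9 and 66.8 CPM in WT and 76.7, 76.3 and 73.4 CPM in KO, in the same library order. The library WT L082 was the lowest, and the other 5 lay within 4 CPM of each other. The log2 fold change was 0.06 (interval −0.10 to 0.23).

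The feedback inhibitors were all detected at levels that overlapped between genotypes. Nfkbia (chr12:55489410-55492647, minus strand) encodes IkappaBalpha, which binds canonical dimers in the cytoplasm and is remade after each wave of signalling. It was at 366, 348 and 352 CPM in WT K090, L080 and L082. It was at 375, 327 and 407 CPM in KO K089, L078 and L081, so the KO libraries lay on both sides of the WT libraries. The means were 355 ± 9.58 CPM (SD, n = 3) in WT and 370 ± 40.0 CPM (SD, n = 3) in KO, and the log2 fold change was 0.06 (interval −0.17 to 0.28). Nfkbie (chr17:45555703-45563169, plus strand), the gene of IkappaBepsilon, was at 42.1, 48.8 and 36.5 CPM in WT and at 46.5, 44.6 and 42.6 CPM in KO. Both ends of its range were WT libraries, and the log2 fold change was 0.07 (interval −0.20 to 0.34).

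Tnfaip3 (chr10:19000910-19015657, minus strand) encodes A20, an enzyme that edits ubiquitin chains on signalling adaptors and ends canonical signalling. It was at 161, 171 and 186 CPM in WT K090, L080 and L082. In KO K089, L078 and L081 it was at 212, 142 and 210 CPM. The library KO L078 was the lowest of all and the other KO libraries the highest, so the difference between the KO libraries exceeded that between the genotypes. The means were 173 ± 12.5 CPM (SD, n = 3) in WT and 188 ± 39.4 CPM (SD, n = 3) in KO. The log2 fold change was 0.12 (standard error 0.16, interval −0.27 to 0.51, edgeR adjusted p = 0.969), which grew to 0.29 without KO L078 and fell to 0.054 without KO K089.

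In the non-canonical arm, the p100 gene Nfkb2 (chr19:46304320-46312385, plus strand) was the subunit with the highest level per length of transcript. It was at 265, 256 and 216 CPM in WT K090, L080 and L082, and at 236, 250 and 247 CPM in KO K089, L078 and L081. The WT libraries held both ends of the range. The means were 246 ± 25.9 CPM (SD, n = 3) in WT and 244 ± 7.18 CPM (SD, n = 3) in KO, with a log2 fold change of −0.0088 (interval −0.23 to 0.21). Relb (chr7:19606217-19629438, minus strand), whose protein pairs with p52, was at 67.6, 62.8 and 47.0 CPM in WT and at 55.9, 62.8 and 60.8 CPM in KO. The lowest library was WT L082, as for Nfkb2, and the log2 fold change was 0.017 (interval −0.32 to 0.35). The exons of Nfkb2 overlap those of 2 genes on the other strand, over 531 and 299 bases, and the counting is not stated to use strand. The table lists 1 of these, Psd, with at most 25 counts in a library.

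The regulators of the non-canonical arm were the least and one of the most steady members. Traf3 (chr12:111166370-111267153, plus strand) was at 112, 118 and 113 CPM in WT K090, L080 and L082 and at 128, 114 and 121 CPM in KO K089, L078 and L081. The highest library was KO K089, and KO L078 lay among the WT libraries. The log2 fold change was 0.08 (standard error 0.06, interval −0.078 to 0.23, edgeR adjusted p = 0.969). Map3k14 (chr11:103219762-103267472, minus strand), the gene of NIK, was at 29.0, 24.8 and 17.8 CPM in WT and at 18.1, 26.3 and 18.9 CPM in KO. The libraries WT K090, KO L078 and WT L080 were the highest, in that order, and each genotype held libraries of both kinds. The means were 23.9 ± 5.66 CPM (SD, n = 3) in WT and 21.1 ± 4.53 CPM (SD, n = 3) in KO. The log2 fold change was −0.18 (standard error 0.22, interval −0.71 to 0.36, edgeR adjusted p = 0.969). It ran from −0.37 without KO L078 to −0.0096 without WT K090. The exons of Map3k14 share 135 bases (3.18%) with those of 1700028N14Rik on the same strand, where reads of both genes cannot be told apart.

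**Figure D2:**
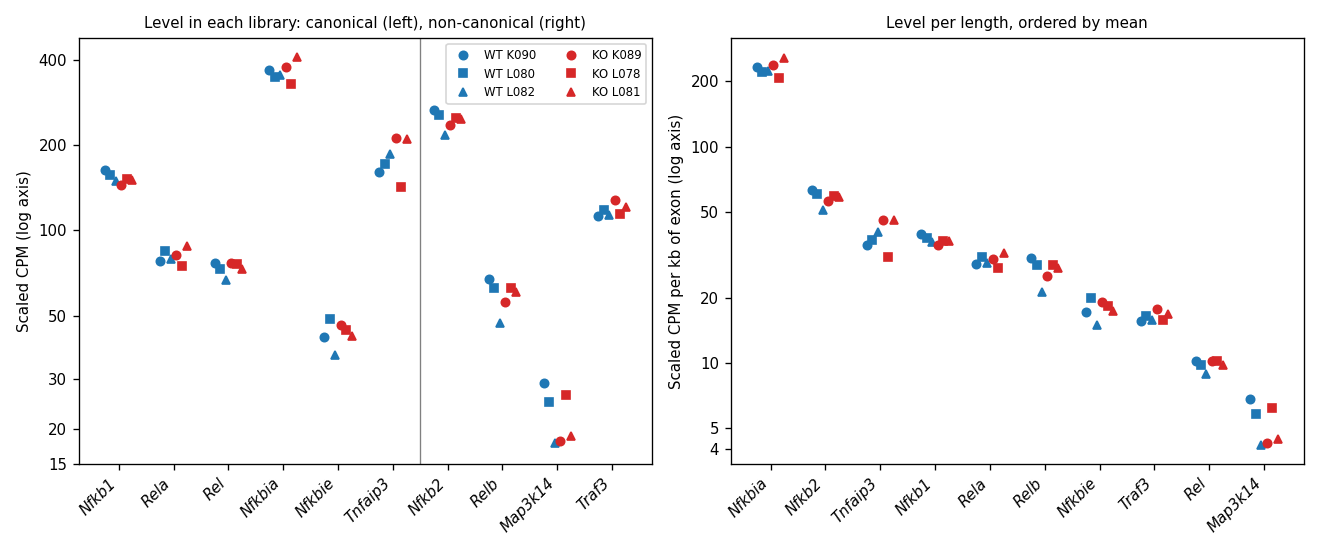
Scaled CPM of the 10 members in each library (left, log axis, canonical members first) and the same per kilobase of exon, ordered by mean (right, log axis). Blue points are WT and red points KO libraries, which overlap for all 10 genes, and Map3k14 shows the widest spread, from 17.8 to 29.0 CPM.

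The arms were contrasted within each library, where the scaling of libraries cancels. The mean log2 CPM of the 4 non-canonical members minus that of the 6 canonical members was −0.41, −0.52 and −0.72 in WT K090, L080 and L082. It was −0.72, −0.41 and −0.69 in KO K089, L078 and L081. The WT mean was −0.55 ± 0.16 (SD, n = 3) and the KO mean −0.61 ± 0.17 (SD, n = 3), which makes a difference of −0.057 that lay within the spread of either genotype. This difference ran from −0.15 without KO L078 to 0.014 without WT K090, so its direction rests on single libraries. The median log2 fold change was 0.06 for the canonical arm (5 of 6 genes above 0) and 0.0043 for the non-canonical arm (2 of 4 above 0). That of the non-canonical arm ran from −0.083 without WT L082 to 0.056 without WT K090. As a score over chosen genes, this contrast was given no p.

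The ratio of Nfkb2 to Nfkb1 counts was 1.62, 1.63 and 1.45 in WT K090, L080 and L082, and 1.64, 1.65 and 1.64 in KO K089, L078 and L081. It was nearly constant, except in WT L082 where it was lower, and the genotypes were separated by less than rounding shows. The ratio of Relb to Rela was 0.868, 0.744 and 0.594 in WT and 0.683, 0.836 and 0.692 in KO, with a WT mean of 0.735 ± 0.137 (SD, n = 3) against 0.737 ± 0.0861 (SD, n = 3). The ratio of Map3k14 to its restraint Traf3 was 0.259, 0.209 and 0.157 in WT and 0.141, 0.231 and 0.156 in KO. That ratio varied more than the others, and both genotypes held high and low libraries. The ratio of Nfkbia to Rela was 4.70, 4.13 and 4.44 in WT and 4.58, 4.36 and 4.63 in KO.

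In the members that varied most, Map3k14, Tnfaip3 and Relb, the variation divided libraries within each genotype. Markers of macrophages, the cells from which osteoclasts form, did the same. The median of 8 macrophage markers, set against the average of the gene in all 6 libraries, was 0.77, 0.59 and −0.84 log2 in WT K090, L080 and L082. The KO libraries K089, L078 and L081 stood at −0.82, 0.70 and −0.39 log2. The 3 libraries with the higher macrophage values (WT K090, WT L080 and KO L078) were those with more Map3k14 and less Tnfaip3, and those where the non-canonical arm stood higher relative to the canonical arm. They were also highest in Relb, Nfkb2 and Nfkb1, by narrow margins. Nfkbie, Nfkbia, Rela, Rel and Traf3 did not divide the libraries so. The division was read from the values, and the share of all genes tested that follow it was not counted. Across the genes tested, chi-square per degree of freedom was at most 32.5 on either side of the division (WT L082 against KO K089). It was at least 36.6 between the sides (WT L080 against WT L082). Among the macrophage markers Adgre1, which encodes F4/80, was at 312, 272 and 80.02 CPM in WT and 64.4, 262 and 95.8 CPM in KO. The summed level of the 8 markers did not divide the libraries so, at 3718, 3901 and 3856 CPM in WT and 4465, 3660 and 4173 CPM in KO, because Csf1r (the highest in CPM) and Cd68, both also expressed by osteoclasts, make up most of it. Cd68 stood the other way, at 1454, 1578 and 1864 CPM in WT and 2252, 1491 and 2039 CPM in KO. Csf1r did not divide the libraries so, at 1757, 1885 and 1851 CPM in WT and 2096, 1724 and 1971 CPM in KO. Without these 2, left out once the values were known, the sum was 507, 438 and 141 CPM in WT and 117, 446 and 163 CPM in KO. No macrophage marker of the 8 was at 0, 0 passed the test, and 3 had a log2 fold change above 0 and 5 below (median −0.37). Mrc1, the mannose receptor, and Adgre1 had the largest, at −0.72 and −0.65.

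The osteoclast markers went the other way. The median of the 14 was −0.37, −0.11 and 0.06 log2 in WT K090, L080 and L082 and 0.40, −0.30 and 0.26 log2 in KO K089, L078 and L081. Their sum was 41621, 54451 and 62090 CPM in WT and 81082, 45191 and 72473 CPM in KO. The median of 12 interferon response genes was 1.66, 0.63 and −1.03 log2 in WT and −1.57, 0.95 and −0.62 log2 in KO, the same division as the macrophage markers. All 14 osteoclast markers lay above 0 (median log2 fold change 0.28), with Ctsk, the collagen-degrading cathepsin K, at 0.45 and Acp5, the phosphatase TRAP, at 0.36, and 0 passed the test. All 12 interferon genes lay below 0 (median −0.81), with the largest changes in Usp18 (−1.17) and Ifit3 (−0.98), and 0 passed it.

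The stromal, proliferation and dendritic cell lists did not follow the same division in full. The 13 stromal and osteoblast markers, led by Col1a1, summed to 934, 1467 and 1975 CPM in WT K090, L080 and L082 and to 846, 2145 and 733 CPM in KO K089, L078 and L081. Of the 10 tested, 0 passed and 10 were below 0 (median −0.20), with Dcn at −0.54 and Pdgfra at −0.43. The 10 proliferation genes, led by Mki67, summed to between 595 and 1206 CPM, with 0 called and 10 below 0 (median −0.24, Cdk1 at −0.29 and Top2a at −0.26). The sum for dendritic cell markers ran from 21.7 to 31.3 CPM, chiefly Itgax, and of 3 tested 0 passed and 2 were above 0 (median 0.35, with Ccr7 at 0.35). Siglech of this list is not in the table. Of the neutrophil and T cell markers 1 each was tested and not called, S100a8 (−0.93) and Cd4 (−0.72). Cd4 followed the division of the macrophage markers, at 2.35, 1.91 and 0.770 CPM in WT and 0.477, 1.95 and 0.530 CPM in KO, in the same library order, and no B lymphoid or red cell marker was tested.

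The part of these differences in the levels of Map3k14, Tnfaip3, Relb, Nfkb2 and Nfkb1 was not tested. In bulk libraries, fewer cells of a type and less RNA per cell cannot be told apart.

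**Figure D3:**
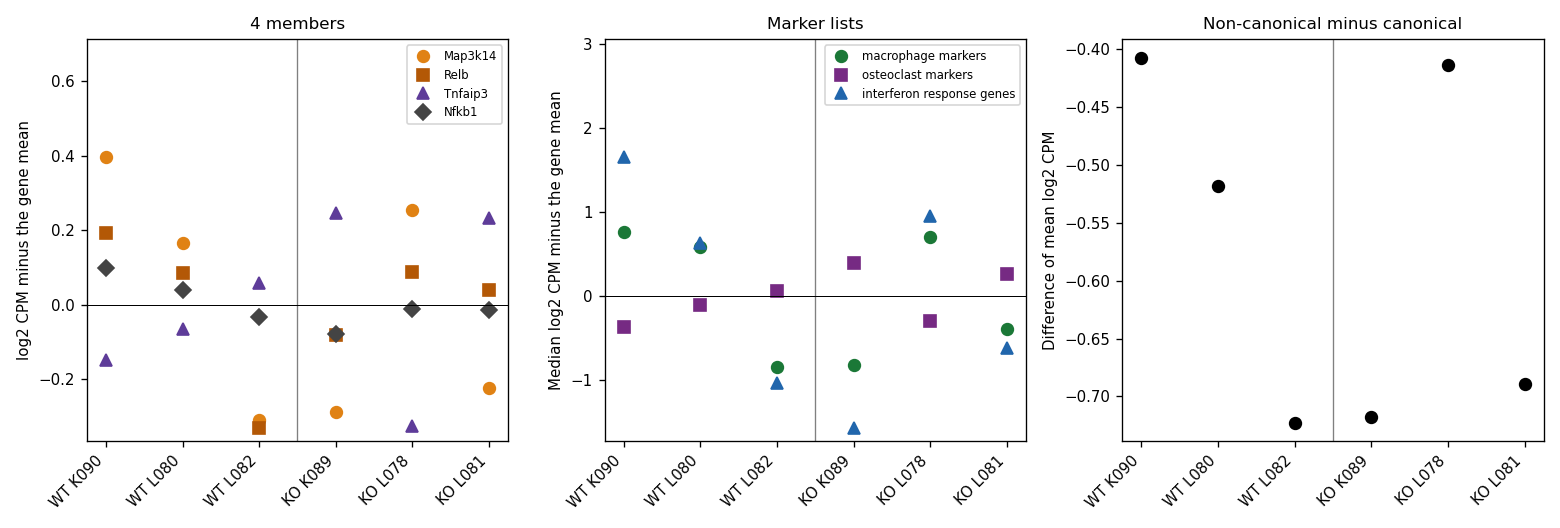
Log2 CPM relative to the gene mean for 4 members (left), the medians of 3 marker lists on the same scale (middle), and the mean log2 CPM of the non-canonical minus the canonical members (right), by library. WT K090, WT L080 and KO L078 lie on the same side of the other libraries in each panel, at −0.41, −0.52 and −0.41 on the right. For Nfkb1 the margin is narrow, with KO L078 at −0.011 and KO L081 at −0.014.

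The animal numbers begin with K or L, and each letter holds both genotypes. The log2 difference of Map3k14 (KO minus WT) was −0.68 between the K libraries, 1 against 1, and 0.087 between the L libraries, 2 against 2. Tnfaip3 differed by 0.39 and −0.044, and Relb by −0.27 and 0.19. The direction differed between the letters for 6 members, the others being Nfkb2, Rela and Rel. It was the same for 4, Nfkb1, Nfkbia, Nfkbie and Traf3, with Traf3 at 0.19 and 0.019. The contrast of the arms (non-canonical minus canonical, KO minus WT) was −0.31 between the K libraries and 0.069 between the L libraries, so its direction differed too.

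To compare genes with each other, scaled CPM was divided by exon length in the GENCODE M21 annotation of GRCm38, since longer transcripts give more reads. Nfkbia, the shortest at 1578 bases, stood highest with 230 CPM per kb ± 17.2 (SD over 6 libraries). Nfkb2 was next at 58.1 ± 4.03 CPM per kb, followed by Tnfaip3 at 39.2 ± 5.98 and Nfkb1 at 37.0 ± 1.58 CPM per kb. Rela stood at 29.8 ± 1.71 and Relb at 26.9 ± 3.24 CPM per kb. Then came Nfkbie at 17.9 ± 1.74, Traf3 at 16.5 ± 0.842, Rel at 9.89 ± 0.515 and Map3k14 at 5.30 ± 1.14 CPM per kb. The ranges over the 6 libraries overlapped between the neighbours Tnfaip3 and Nfkb1, Rela and Relb, and Nfkbie and Traf3, so these pairs have no order beyond their spread. The place of Nfkb1 rests on the gene model, because with all annotated exons (12061 in place of 4124 bases), an alternative added once the data were seen, it fell from the fourth to the eighth place at 12.6 CPM per kb. Tnfaip3 moved from the third to the fourth place, Rela from the fifth to the third and Traf3 from the eighth to the fifth. The other 6 members held their places. The gene models behind the counts are not stated.

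The rest of the pathway was read from 6 lists of receptors, adaptors, kinases, inhibitors and target genes. Of their 76 genes, 71 were tested, and both edgeR tests and DESeq2 called 0 of them. An unadjusted p below 0.05 was reached by 1 gene, Bcl2a1b, and 4 of the 71 had groups that did not overlap, against 4.31% of all genes. The median log2 fold change of the 71 was −0.024, against −0.023 for all genes tested.

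Among 10 receptors, 9 were tested, 3 were above 0 and 6 below, with a median of −0.24. Tnfrsf11a, which encodes RANK, had the highest CPM of these, at 250 ± 3.57 CPM (SD, n = 3) in WT and 264 ± 28.5 CPM (SD, n = 3) in KO. Tlr2, a receptor for bacterial lipoproteins, was at 59.2, 50.6 and 19.7 CPM in WT K090, L080 and L082 and at 14.97, 56.3 and 21.9 CPM in KO K089, L078 and L081. Il1r1, the interleukin-1 receptor, was at 6.15, 8.62 and 16.2 CPM in WT and at 22.5, 7.35 and 22.3 CPM in KO. The libraries high in Tlr2 were low in Il1r1, and those were again WT K090, WT L080 and KO L078. Neither gene passed the test, with log2 fold changes of −0.47 and 0.75 (edgeR adjusted p = 0.969 for each).

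The adaptors and ubiquitin ligases were tested in full (14 of 14), with 4 above 0, 10 below and a median of −0.038. Traf1, an adaptor that NF-kappaB itself induces, had the highest CPM at 195 ± 16.1 CPM (SD, n = 3) in WT and 187 ± 5.41 CPM (SD, n = 3) in KO. Traf6, which links RANK to the canonical kinases, was at 88.3 ± 2.51 CPM (SD, n = 3) in WT and 98.7 ± 10.0 CPM (SD, n = 3) in KO, a log2 fold change of 0.16 with an edgeR adjusted p of 0.969. Rbck1, a subunit of the linear ubiquitin ligase, had a log2 fold change of −0.20. The 10 kinase genes split evenly around 0, with a median of 0.00085. The one with the highest CPM, Tab2, whose protein couples ubiquitin chains to the kinase TAK1, was at 220 ± 6.62 CPM (SD, n = 3) in WT and 214 ± 3.41 CPM (SD, n = 3) in KO. Ikbke, an inducible kinase, was at 22.3, 18.0 and 7.80 CPM in WT and 4.77, 23.4 and 7.21 CPM in KO, with the same 3 libraries high as for Map3k14. Ikbkg, the NEMO scaffold of the IkappaB kinase, had a log2 fold change of 0.09.

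Of the other 4 IkappaB genes, 1 was above 0 and 3 below, with a median of −0.023. Nfkbid was at 39.0 ± 3.50 CPM (SD, n = 3) in WT and 38.1 ± 5.21 CPM (SD, n = 3) in KO. Nfkbiz and Nfkbib had log2 fold changes of −0.33 and 0.16. The 14 other negative regulators had a median of 0.036, with 8 above 0 and 6 below. Tank, whose protein binds TRAF adaptors, had the highest CPM of them at 327 ± 23.8 CPM (SD, n = 3) in WT and 358 ± 62.8 CPM (SD, n = 3) in KO. Trib3 and Pdlim2 had log2 fold changes of −0.29 and −0.28.

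Of 24 textbook target genes 20 were tested, with 7 above 0, 13 below and a median of −0.22, and these included Nfatc1, which is also on the osteoclast list. The median of the list, relative to each gene's mean, was 0.073, 0.25 and −0.0031 log2 in WT K090, L080 and L082 and −0.46, 0.39 and −0.053 log2 in KO K089, L078 and L081. The KO values, from −0.46 to 0.39, thus reached beyond the WT values on both sides. Tnfaip2 had the highest CPM of the targets at 509 ± 75.9 CPM (SD, n = 3) in WT and 506 ± 17.2 CPM (SD, n = 3) in KO. The chemokine Ccl4 was at 3.82, 3.99 and 0.867 CPM in WT and 0.330, 3.15 and 0.742 CPM in KO, and Nos2 at 1.67, 0.989 and 0.481 CPM in WT and 0.440, 1.04 and 0.141 CPM in KO. Their log2 fold changes of −0.996 and −0.90 were the largest of the list, at an edgeR adjusted p of 0.969 for each, and the groups overlapped.

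Among the 71 genes tested, the 4 without overlap were Ltbr, Map3k7, Tnip2 and Bcl2a1b, named after their values were seen. Bcl2a1b, a survival gene with near-identical copies between which reads may be split, was at 35.6, 32.8 and 40.0 CPM in WT and at 44.7, 43.8 and 44.9 CPM in KO. Its log2 fold change was 0.30 (standard error 0.08, edgeR adjusted p = 0.969). Tnip2, which encodes a partner of A20, was at 24.9, 23.2 and 23.3 CPM in WT and at 25.4, 26.8 and 27.6 CPM in KO. Ltbr, a receptor of the non-canonical arm, had a log2 fold change of 0.11, and Map3k7, which encodes TAK1, of −0.024.

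**Figure D4:**
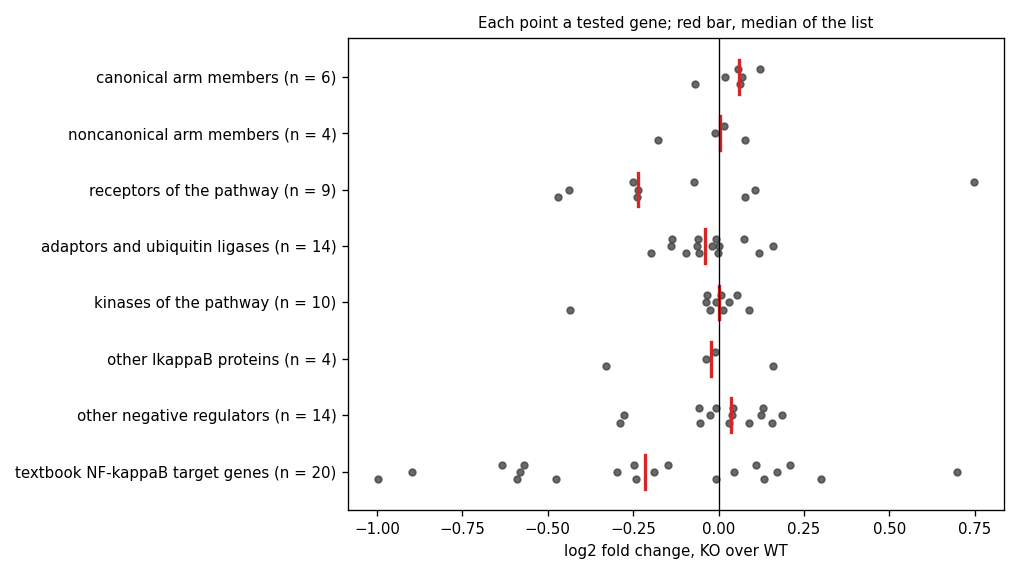
Log2 fold change (KO over WT, horizontal axis) of the tested genes of each list, a point per gene, with the list median as a red bar. The members sit close to 0, with medians of 0.06 and 0.0043, and receptors and target genes spread more widely.

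Genes whose levels followed Nfkb1 and Nfkb2 most closely over the 6 libraries were sought by the root mean square difference of log2 CPM after centring each gene. Ppp3cb, which encodes a catalytic subunit of calcineurin, was closest to Nfkb1, with a difference of 0.012 log2, followed by Rest (0.013) and Pank2 (0.017). Ift140 (0.019), Rmnd5a (0.019) and Ctdsp2 (0.021) were closest to Nfkb2. Steady genes resemble each other under this measure, and 39.6% of the 8691 genes compared lay within 0.1 log2 of Nfkb1 and 24.4% within 0.1 log2 of Nfkb2.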

How the data were processed

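RNAseq libraries of 3 WT and 3 Slc37a2 KO samples were used. The authors deposited whole-number counts per gene symbol, not normalized, for 6 libraries, beside their own edgeR comparison (fold change, mean level, likelihood ratio, p and FDR), which was not used. A shorter deposited list repeats that comparison and was not used. The submitters' processing notes name bcl2fastq 2.20.0.422, edgeR 3.30.3 and the build mm10, while no aligner, counter or annotation is named: each is not given in the sources used here. Library columns were assigned to genotypes by their headings, and 0 columns belonged to other samples. Totals ran from 27552183 to 42522292 counts.

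Testing used edgeR 4.0.16 under R 4.3.3 (filterByExpr, TMM, glmQLFit, glmQLFTest, genotype as the term), with Benjamini-Hochberg adjustment over 13483 genes and a limit of 0.05. DESeq2 1.42.0 and edgeR's likelihood ratio test were alternatives. Each 95% confidence interval was built from the fitted change, its standard error and the total degrees of freedom of the quasi-likelihood fit, residual plus prior (prior 2.35). A pseudocount of 0.1 CPM was added before logs of list medians were taken, and a prior count of 2 was used for the pattern search. Other alternatives were DESeq2's size factors, upper quartile scaling, no filter, at least 1 CPM in 3 libraries, the letter of the animal number as a term, and each library left out. The edgeR fit, not that of DESeq2, was tested on simulated data in which chosen genes were changed. Figures were drawn with Python 3.11.15.

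The members and the 18 gene lists were chosen with earlier results of these data known. Genes were named by rule: the members, Slc37a2, and from each list any gene called, the most abundant gene, the 2 tested genes with the largest fold changes and markers not detected. A single gene that this rule names is not reported here. Ltbr, Map3k7, Tnip2 and Bcl2a1b were named after their values were seen. For Nfkb1 and Nfkb2, the 3 tested genes of at least 10 CPM with the smallest difference in pattern were added. Exon lengths are of basic protein-coding transcripts. Protein sequences were not used here.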

Additional observations from a re-analysis of the deposited data

How the results depend on the processing

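No paired analysis was possible because the column headings carry animal numbers, and neither the headings nor the labels name pairs of libraries. The letter of the animal number, which holds 1 library of each genotype under K and 2 under L and sets no pairs under L, was fitted as a term and called 0 members. The number of members called was 0 under the 7 other settings and with each of the 6 libraries left out. The lowest adjusted p of a member was 0.950 under the other settings and 0.227 with a library left out (edgeR and DESeq2, Benjamini-Hochberg adjustment). The number of genes called among all tested was 1, and 2 with no filter on low counts, with edgeR's likelihood ratio test and with DESeq2's Wald test. With a library left out it was 1 each time. Of 70 member fold changes under other settings 67 kept their sign. The 3 that did not were Nfkb2, at 0.0028 after upper quartile scaling, and at 0.0093 both with the size factors of DESeq2 and with its Wald test. Of 60 with a library left out 51 kept their sign. The ranges were −0.068 to 0.049 for Nfkb2, −0.015 to 0.077 for Rela, −0.0029 (without WT L082) to 0.18 (without WT L080) for Nfkbie and −0.098 to 0.13 for Relb. The members that kept their sign ran from 0.0042 (without KO L081) to 0.14 (without KO L078) for Nfkbia, −0.08 to −0.026 (without KO K089) for Nfkb1, 0.036 to 0.11 (without WT K090) for Rel and 0.057 to 0.12 (without KO L078) for Traf3. Map3k14 ran from −0.37 to −0.0096 and Tnfaip3 from 0.054 to 0.29. The median of the canonical arm ran from 0.032 to 0.073 and that of the non-canonical arm from −0.083 (without WT L082) to 0.056 (without WT K090), and the difference between the arms from −0.15 to 0.014. The cause of these moves was not tested. The median of all genes moved by less than 0.1 log2 under each scaling. With 3 libraries per genotype, the values do not show that small changes are absent.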
